A study of Mus musculus with 35 samples.

Results

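The brains compared here came from mice that had no surgery. The comparison sets 7 arrays of beta2 adrenergic receptor knockout mice against 8 arrays of wild type mice, both male and both on the FVB background, with RNA taken from a naive brain hemisphere. These 15 arrays were chosen by their titles from the 35 of the series. The other 20 hold hemispheres 24 h after middle cerebral artery occlusion (MCAO, a model of stroke that blocks a large brain artery) or after sham surgery, 7 and 3 per genotype. Per the labels naive and surgery arrays were normalized in separate runs, so the naive levels are never set against surgery levels below. The source label of the naive samples also carries a 24 h mark, whose meaning without surgery is not given. The labels do not say how the knockout allele was built, how far the knockout line had been bred to the FVB line, at what age the mice were taken, or whether each array is a separate animal. The p-values below therefore measure the spread between arrays, and the genotype cannot be told apart from any other difference between the 2 mouse lines.

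The beta2 adrenergic receptor binds adrenaline and noradrenaline and couples to the stimulatory G protein. That protein switches on adenylyl cyclases, which make cyclic AMP (cAMP). Cyclic AMP activates protein kinase A, which phosphorylates the transcription factor CREB and so raises a set of activity-dependent genes, while phosphodiesterases break the messenger down. In brain the receptor is found on neurons, astrocytes, microglia and vessels. The naive comparison asks how the knockout brain differs before any injury.

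Array 6 of the wild type stood apart from the other 14 naive arrays. The signal of its actin control probe sets at the 3′ end of the message exceeded that at the 5′ end by 4.88 on the log2 scale, against 0.28 to 0.72 in the other wild type and 0.46 to 0.82 in the knockout arrays. The same difference for Gapdh was 3.51 there and -0.23 to 0.15 elsewhere, and the median correlation of that array with the others was 0.82, against at least 0.986 for every other array. A large 3′ excess marks degraded RNA, so the main counts and the leading genes are given with and without that array. An exact two-sided permutation test of the 3′ minus 5′ differences between genotypes missed the threshold (actin p = 0.715, Gapdh p = 0.919; p = 0.883 and p = 0.306 without array 6). The genotypes did differ in the shape of the whole signal distribution. The median over all probe sets was 6.87 to 6.94 in wild type and 7.02 to 7.05 in knockout, and the 1st percentile was 3.90 to 4.15 in wild type and 3.61 to 3.67 in knockout, with no overlap in either (exact two-sided permutation p = 0.0001554 for both; p = 0.000583 for both without array 6; each is the smallest value the arrays allow). Knockout arrays 2 and 3 had high signal on the 18S ribosomal RNA control, 11.4 and 10.5, against at most 8.83 in the other arrays.

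**Figure D1:**
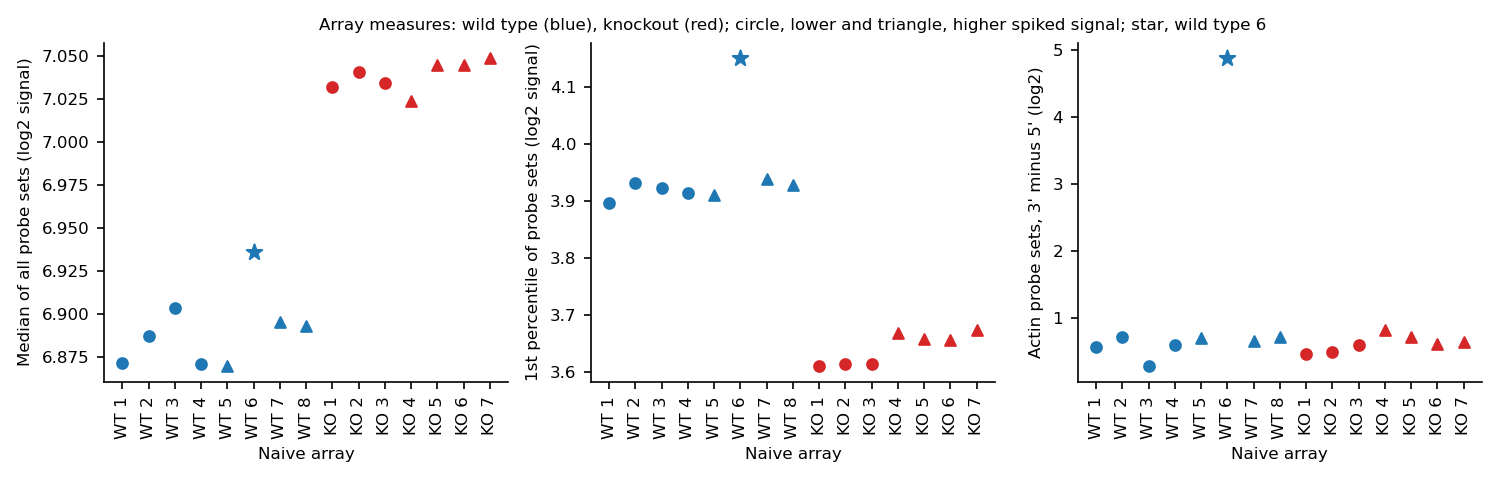
Each point is one naive array; the left panel plots the median and the middle panel the 1st percentile of all probe sets on the log2 scale, and the right panel the 3′ minus 5′ difference of the actin control probe sets. The knockout arrays lie above the wild type arrays in the median (7.02 to 7.05 against 6.87 to 6.94) and below them in the 1st percentile, and wild type array 6 lies at 4.88 in the right panel.

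Because the 2 distributions differed, the genotype difference of a gene followed its signal level. Values are log2 signals, so a difference of 1 is a 2-fold change. In the dimmest of 10 equal bins of the 18193 genes the median difference, knockout minus wild type, was -0.30, and in bin 8 it was 0.17. After joint quantile normalization of the naive arrays, which gives every array the same distribution, and without wild type array 6, the medians of the bins lay between -0.06 and 0.01. The genes below are therefore read in 4 fits, the deposited values and the jointly normalized values, each with and without wild type array 6. All 4 fits start from the deposited values. A call in all 4 therefore cannot exclude a shift of single genes made when those values were computed. The labels do not say whether the 2 genotypes were normalized together. For some genes several knockout arrays held 1 identical value, as H2-Bl did at 6.63895 in knockout arrays 1 to 4 and 7. Whether the difference in distribution came from the animals or from how the arrays were processed was not tested.

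**Figure D2:**
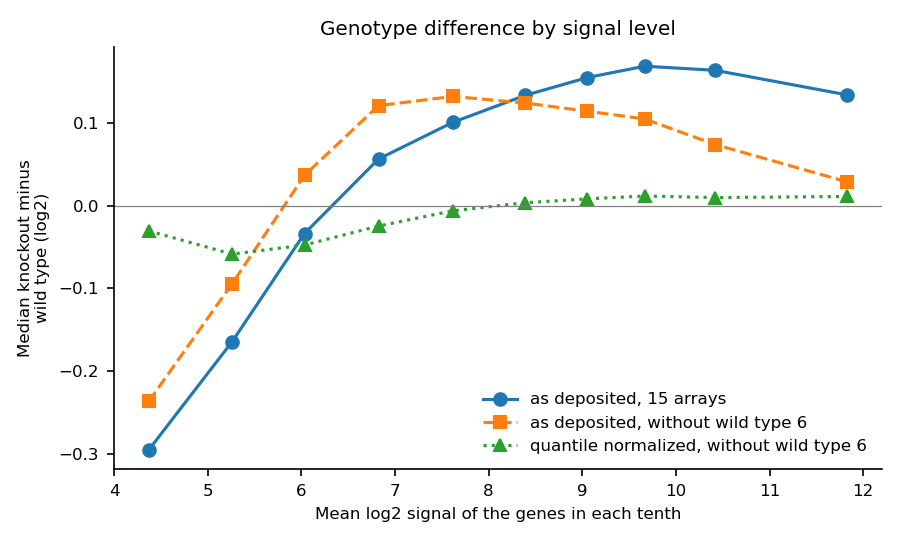
Median knockout minus wild type difference (log2) of the genes in each of 10 equal bins of mean signal, plotted against the mean log2 signal of the bin. With the deposited values the line runs from -0.30 among the dimmest genes to 0.17 in bin 8, and after joint quantile normalization without wild type array 6 it stays within -0.06 and 0.01.

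With the deposited values of all 15 arrays, 2669 genes were called at an adjusted p under 0.05 by limma with Benjamini-Hochberg adjustment, which is 14.7% of the genes tested. Of these, 1158 (6.37%) were higher and 1511 (8.31%) lower in knockout. The balance of directions moved with the processing: median centring gave 330 higher and 3378 lower, and leaving out the dimmest 40% of genes before the fit gave 344 and 13. Without wild type array 6 the count was 6641 (36.5%), with 4389 higher (24.1%) and 2252 lower (12.4%), and all 2669 were among them in the same direction. Joint quantile normalization gave 529 higher (2.91%) and 968 lower (5.32%) genes with all arrays, and 1885 (10.4%) and 2156 (11.9%) without array 6. In all 4 fits 1064 genes were called in one direction, 356 higher and 708 lower. Most calls were small: 12 genes were higher and 16 lower by at least 2-fold. Without array 6, all knockout arrays lay above all wild type arrays for 1661 genes (9.13%) and below them for 993 (5.46%).

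Fgf1, which codes for acidic fibroblast growth factor, a ligand of all FGF receptors, was the gene with the largest rise in knockout. Its signal was lowest at 6.98, in the median 7.56 and highest at 7.76 in wild type, and 10.00, 10.09 and 10.24 in knockout. The groups did not overlap, and array 6 at 6.99 lay inside the wild type range. The difference was 2.67 (SE 0.12, adjusted p = 3.38e-09, n = 7 and 8) and 2.6 (SE 0.09) without array 6, and both further probe sets of the gene were called in the same direction. Serpina9, a serine protease inhibitor of the alpha-1-antitrypsin family, stood at 4.87 to 5.27 in the 7 wild type arrays other than array 6 and at 6.99 to 7.06 in knockout. Array 6 read 6.20, between the groups, and the difference was 1.85 (SE 0.16, adjusted p = 9.59e-06) with it and 2.0 (SE 0.06) without it. Fxyd2, the gamma subunit that modulates the sodium-potassium pump, was 6.08 to 6.54 in wild type and 7.94 to 8.24 in knockout. It rose by 1.74 (SE 0.08, adjusted p = 3.38e-09), and 2 of its 3 further probe sets were called in the same direction.

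Pcdhb9, a cell adhesion gene of the protocadherin beta cluster, read 5.81 to 6.55 in the 7 other wild type arrays, 7.55 in array 6 and 8.37 to 8.76 in knockout. The difference was 2.12 (SE 0.19, adjusted p = 1.46e-05) and 2.28 without array 6. Garem1, an adaptor of growth factor receptor signalling to ERK, spread more among wild type arrays, from 7.57 to 9.15, and stood at 9.38 to 10.20 in knockout (difference 1.67, SE 0.23, adjusted p = 0.000248). Dmxl1, which takes part in assembly of the vacuolar proton pump, was 5.45 to 7.05 in the 7 other wild type arrays and 7.93 to 8.34 in knockout, while array 6 read 8.66, above every knockout array. Its difference of 1.58 (SE 0.34, adjusted p = 0.00503) was 1.87 without that array. Snhg12, a host transcript of small nucleolar RNAs, rose by 1.5 (SE 0.29, adjusted p = 0.00264) with a wide wild type range of 6.42 to 8.65. The endothelial receptor gene Notch4 rose by 1.35 (SE 0.10, adjusted p = 1.93e-06), although 1 other probe set of the gene was called lower in knockout.

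The remaining rises of the 15 largest lay between 0.92 and 1.15. They were Hccs (1.15), which attaches haem to cytochrome c, the death receptor gene Tnfrsf25 (1.05), Prps2 (1.04), which makes the phosphoribosyl donor for nucleotide synthesis, Speer4cos (1.04), 2900052N01Rik (0.97), the plasma membrane calcium pump gene Atp2b4 (0.97) and Msl3 (0.92), a subunit of a histone acetyltransferase complex. Of the 15 largest rises Speer4cos alone was not called in all 4 fits: joint quantile normalization of all arrays gave 0.94 at an adjusted p of 0.0538. Among the smallest p-values were also the MHC class I gene H2-Bl, higher by 0.87 (SE 0.06, adjusted p = 1.93e-06), and the microglial lectin gene Siglech, higher by 0.60 (SE 0.05, adjusted p = 1.46e-05).

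Pmaip1 had the largest fall. It codes for NOXA, a p53-induced protein that promotes cell death at the mitochondrion. Its signal was lowest at 6.32, in the median 7.46 and highest at 8.09 in wild type, and 4.70, 4.91 and 5.04 in knockout. All knockout arrays lay below all wild type arrays, by a difference of -2.33 (SE 0.23, adjusted p = 2.94e-05) and of -2.20 without array 6. Fas, the other called gene among the 13 measured genes of apoptosis and p53 response, fell by 0.44 (adjusted p = 0.000396). G530011O06Rik changed by -2.10 with all arrays and by -1.75 without array 6, which read 9.50 against 6.31 to 7.03 in the other wild type arrays and 4.82 to 5.02 in knockout. 4831440E17Rik behaved alike, with -1.59 and -1.38. Tcf23, a basic helix-loop-helix factor, stood at 5.42 to 6.25 in wild type and 4.24 to 4.51 in knockout, a difference of -1.34 (SE 0.11, adjusted p = 5.85e-06).

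The neutrophil genes S100a8 and S100a9, which code for partner calcium-binding proteins of the cytoplasm, fell together. S100a8 was 5.99 to 7.82 in wild type and 5.13 to 5.21 in knockout (difference -1.47, SE 0.23, adjusted p = 0.00067), and S100a9 was 6.05 to 7.50 and 5.32 to 5.59 (difference -1.42, SE 0.20, adjusted p = 0.000331). The knockout arrays were close together in both genes and the wild type arrays spread over more than 1 log2 unit. Some knockout values were identical: S100a8 read 5.1807 in knockout arrays 1, 5 and 7, and S100a9 read 5.41753 in knockout arrays 1 and 4. Both genes were dim in knockout, near the mean level of 5.26 in bin 2 of the 10 bins of signal. Ch25h, the enzyme that makes 25-hydroxycholesterol in activated macrophages and microglia, was 6.20 to 6.55 in the 7 other wild type arrays, 7.38 in array 6 and 4.93 to 5.21 in knockout, with a difference of -1.43 (SE 0.15, adjusted p = 3.53e-05) and of -1.29 (SE 0.06) without array 6. The remaining falls of the 15 largest were Lcn2 (-1.51), 1500015A07Rik (-1.26), Plin4 (-1.21), AI506816 (-1.21), Sult1a1 (-1.18), Pcdhb6 (-1.16), the zinc finger gene Zfp54 (-1.08) and 1600025M17Rik (-1.07). Lcn2 alone of the 15 was not called in all 4 fits, at -1.34 and an adjusted p of 0.063 after joint quantile normalization of all arrays. The only further gene past 2-fold was Bco2, a carotenoid-cleaving enzyme, at -1.0, named after its value was seen; 2810429I04Rik, at -0.59, was among the 10 smallest p-values.

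**Figure D3:**
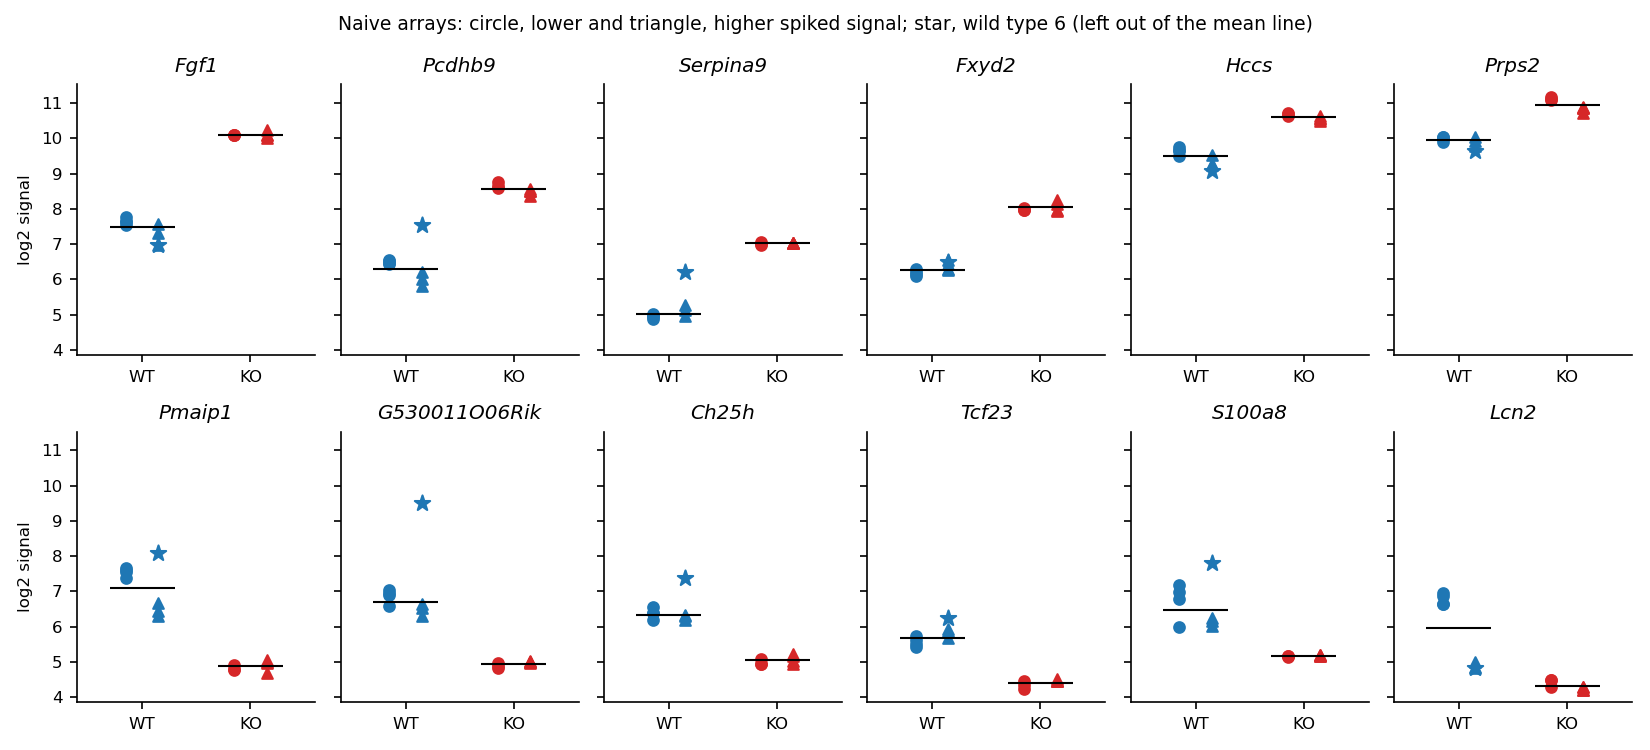
Log2 signal of 12 genes in each naive array, wild type (WT) against knockout (KO), with the mean of the arrays other than wild type 6 as a line; circles and triangles are arrays with lower and higher signal of a spiked control, and the star is wild type array 6. Fgf1 lies at 10.00 to 10.24 in knockout and at 6.98 to 7.76 in wild type, Pmaip1 lies at 4.70 to 5.04 in knockout, and Lcn2 splits the wild type arrays into those at 6.65 to 6.97 and those at 4.82 to 4.99.

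The promoters of the genes named here were read for the letters TGACGTCA, the full cAMP response element bound by CREB, which is its own reverse complement. They were also read for AGAACA on either strand, the half-site of the glucocorticoid receptor. The window was the 250 bases before the RefSeq start of each gene (build GRCm38.p6), and a gene counted if any of its listed starts held the letters. Of 54 called and named genes with a listed promoter, 2 held TGACGTCA, Ch25h, which fell, and Flt1, a VEGF receptor that was higher in knockout by 0.57 with all arrays. Sult1a1 and H2-M3, both lower in knockout, held AGAACA on both strands. These 4 are shown because the letters belong to the pathway of the missing receptor and to the glucocorticoid genes described below; the motifs are in capitals.
Ch25h, chr19:34475149-34475398, minus strand: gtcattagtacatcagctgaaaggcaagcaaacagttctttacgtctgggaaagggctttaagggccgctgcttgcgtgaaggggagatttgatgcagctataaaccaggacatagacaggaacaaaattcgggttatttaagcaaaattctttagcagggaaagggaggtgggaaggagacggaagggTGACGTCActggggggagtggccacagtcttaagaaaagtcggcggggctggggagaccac
Flt1, chr5:147726012-147726261, minus strand: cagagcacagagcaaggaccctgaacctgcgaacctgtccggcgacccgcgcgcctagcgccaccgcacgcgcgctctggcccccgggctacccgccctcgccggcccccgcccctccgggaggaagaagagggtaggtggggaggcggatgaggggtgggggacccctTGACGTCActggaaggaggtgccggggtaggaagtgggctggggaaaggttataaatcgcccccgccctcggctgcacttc
Sult1a1, chr7:126676419-126676668, minus strand: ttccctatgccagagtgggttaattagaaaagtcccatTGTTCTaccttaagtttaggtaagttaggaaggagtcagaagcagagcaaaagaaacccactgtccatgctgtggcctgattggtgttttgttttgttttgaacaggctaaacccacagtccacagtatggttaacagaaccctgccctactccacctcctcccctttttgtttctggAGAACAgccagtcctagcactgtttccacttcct
H2-M3, chr17:37269984-37270233, plus strand: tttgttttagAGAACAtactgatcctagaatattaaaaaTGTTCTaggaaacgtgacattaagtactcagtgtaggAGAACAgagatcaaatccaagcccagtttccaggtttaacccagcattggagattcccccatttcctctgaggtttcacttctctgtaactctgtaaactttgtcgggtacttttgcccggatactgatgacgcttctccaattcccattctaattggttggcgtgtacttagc

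The element of Ch25h begins 61 bases and that of Flt1 81 bases before the start. Over all 14368 tested genes with a listed promoter, 2.51% held TGACGTCA. The share was 2.36% among the 254 genes higher and 2.19% among the 547 genes lower in knockout in all 4 fits. The letters AGAACA or TGTTCT stood in 14.7% of all promoters, 14.2% of the higher and 18.5% of the lower genes. The shorter letters TGACG or CGTCA, a part of the full element, stood in 25.9% of all, 21.3% of the higher and 17.9% of the lower genes. Such matches describe the letters of the window only.

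The genes of the receptor's own pathway were read in 6 lists, with 7 of 83 genes (8.43%) called by limma with all arrays, against 14.7% of all genes, and 29 of 83 (34.9%) without array 6, against 36.5%. The 29 were 26 higher and 3 lower, against 24.1% and 12.4% of all genes. After joint quantile normalization without array 6, 13 of the 83 were higher and 8 lower, against 10.4% and 11.9% of all genes. None of 10 measured genes of adrenergic receptors and noradrenaline handling was called by limma with all arrays or without array 6, and none had an unadjusted p under 0.05 with all arrays. The 2 with the smallest p were Dbh, which makes noradrenaline from dopamine, at -0.19 (adjusted p = 0.191; lower by 0.25, and the only 1 of the list called, after joint quantile normalization without array 6), and Pnmt, which makes adrenaline from noradrenaline, at 0.17 (adjusted p = 0.32). Of 18 genes of receptor desensitization and G proteins, 6 were higher without array 6 and 2 with all arrays: Gnal, the G protein alpha subunit of striatal neurons, by 0.28 (adjusted p = 0.041) and Rgs9, a striatal regulator of G protein signalling, by 0.40 (adjusted p = 0.023). Of 10 adenylyl cyclases, 1 was called with all arrays, the soluble cyclase Adcy10, lower by 0.33 (adjusted p = 0.017), and 4 were higher and 1 lower without array 6.

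Among 15 cAMP phosphodiesterases, 2 were higher and 1 lower with all arrays, and 5 and 1 without array 6. For this list and those below, the shares of all genes were 6.37% higher and 8.31% lower with all arrays. Without array 6 they were 24.1% and 12.4%. Pde7b, which breaks down cAMP, stood at 10.60 to 10.80 in wild type and 10.86 to 11.07 in knockout (difference 0.24, adjusted p = 0.0064). Pde4d, which acts near the beta receptors, was higher by 0.24 (adjusted p = 0.012). Pde11a fell by 0.49 (adjusted p = 0.0037), from 5.78 to 6.43 in wild type to 5.34 to 5.75 in knockout. Of 20 genes of protein kinase A, Epac and their anchors, 1 was higher, Akap13 by 0.38 (adjusted p = 0.0078), with 4 of its further probe sets in the opposite direction and 1 of these called; without array 6, 7 of the list were higher and 1 lower. None of 10 genes of the CREB family and its coactivators was called with all arrays, where Crtc3 was at 0.46 (adjusted p = 0.058) and Crtc2 at 0.27 (adjusted p = 0.12), 2 were higher at an unadjusted p under 0.05, and 4 were called higher without array 6. In all 4 fits 3 of the 83 were called, Pde7b, Pde11a and Akap13, against 1064 of all 18193 genes.

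The activity-dependent genes that CREB drives were read as a list. Of 26 measured, 4 were higher with all arrays, against 6.37% of all genes, and 8 without array 6, against 24.1%, and none was called lower by limma in either fit or had an unadjusted p under 0.05 for a fall with all arrays; after joint quantile normalization none was called with all arrays, and 5 were higher and 1 lower without array 6. The median difference over the list was 0.34 without array 6, against 0.06 over all genes. Vgf, a secreted neuropeptide precursor, was 11.14 to 11.41 in wild type and 11.46 to 11.76 in knockout (difference 0.30, adjusted p = 0.0065). The neurotrophin gene Bdnf was higher by 0.45 (adjusted p = 0.046), or by 0.54 without array 6, which read 9.15 inside the knockout range. Fosb was higher by 0.79 (adjusted p = 0.039), with knockout array 4 at 8.68 above the 6.67 to 7.26 of the other knockout arrays. Fosl2, another partner in the AP-1 dimer, was higher by 0.56 (adjusted p = 0.038). None of these 4 was called in all 4 fits.

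Several of the falls differed in size between parts of the naive arrays. The naive arrays fall into sets by the signal of a spiked bacterial control, bioC, added to every sample. It was 8.19 to 8.51 in wild type arrays 1 to 4 and knockout arrays 1 to 3, and at least 8.89 in the others. What the sets are is not labelled, and this split was made after the data were seen. Within wild type, without array 6, the sets differed in 2862 genes (15.7%), and within knockout in 4037 (22.2%). The genotype difference itself differed between the sets in 207 genes (1.14%) in a limma fit with an interaction term.

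The glucocorticoid response genes split the wild type arrays. The list holds genes read as responding to the stress hormone corticosterone, and also the receptor genes Nr3c1 and Nr3c2. Of 16 measured, 12 were higher in wild type arrays 1 to 4 than in arrays 5, 7 and 8, and 1, Per1 (-0.45), was lower. In knockout 2 differed between the sets. For 12 of the 16 every array of the lower spiked set lay above every array of the higher set in wild type, against 13.7% of all genes, and for 1 of 16 in knockout, against 10.1% of all genes. The interaction was called for 9 of the 16, against 1.14% of all genes. Plin4, a lipid droplet coat protein, stood at 8.02 to 8.29 in wild type arrays 1 to 4 and at 6.71 to 7.42 in arrays 5, 7 and 8, but at 6.12 to 6.34 and 6.32 to 6.52 in the matching knockout sets. Its genotype difference was -1.96 in the first set and -0.55 in the second (interaction -1.41, SE 0.19, adjusted p = 0.00125). Sult1a1, a phenol sulfotransferase, was 9.04 to 9.32 and 7.44 to 7.80 in the wild type sets and 7.13 to 7.39 and 7.26 to 7.65 in knockout. Its genotype difference of -1.93 in the first set was -0.18 in the second, where it was not called (adjusted p = 0.23).

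The same held for glucocorticoid genes that were not called with all arrays, named after their values were seen. The kinase gene Sgk1 read 11.03 to 11.40 in wild type arrays 1 to 4, 9.96 to 10.33 in arrays 5, 7 and 8, and 10.19 to 10.60 in all knockout arrays. Fkbp5, a chaperone of the glucocorticoid receptor, read 9.76 to 10.06, 9.29 to 9.38 and 9.33 to 9.64 in the same order. Tsc22d3, the leucine zipper that mediates anti-inflammatory effects of the hormone, read 10.65 to 11.12, 10.10 to 10.26 and 10.12 to 10.24. In all 3 genes every knockout array lay below wild type arrays 1 to 4, and the interaction was called (adjusted p = 0.000917, 0.0122 and 0.00394).

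**Figure D4:**
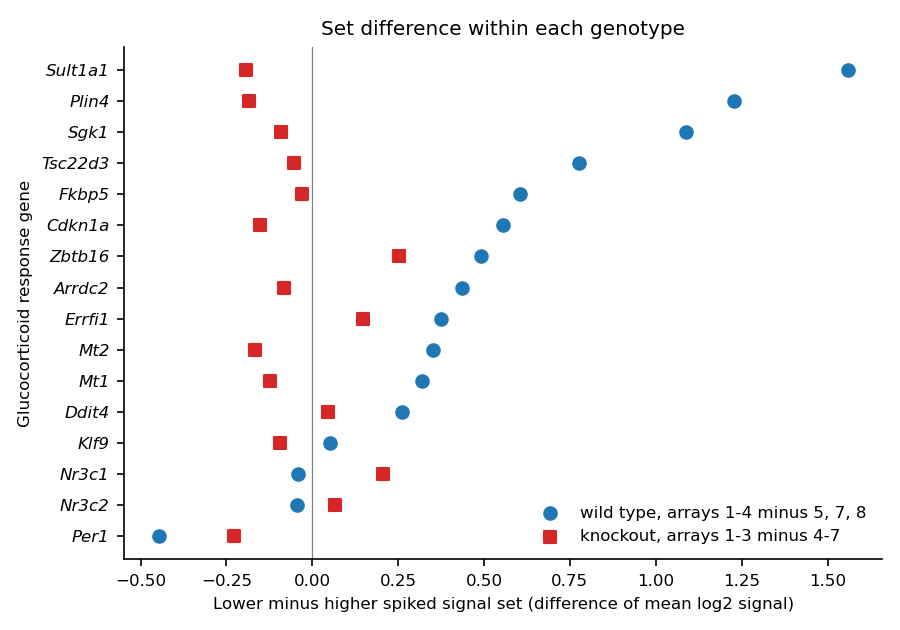
For each of 16 glucocorticoid response genes, the mean log2 signal of the arrays with lower spiked control signal minus that of the arrays with higher signal, within wild type (blue circles, array 6 left out) and within knockout (red squares). The wild type points reach 1.56 (Sult1a1), 1.23 (Plin4) and 1.09 (Sgk1), while the knockout points lie between -0.23 and 0.25.

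Other falls followed the same sets. Lcn2, an iron-binding acute-phase protein, was 6.65 to 6.97 in wild type arrays 1 to 4, 4.82 to 4.99 in arrays 5, 7 and 8, and 4.2 to 4.49 in knockout. Its genotype difference was -2.37 in the first set and -0.65 in the second (interaction -1.72, adjusted p = 2.2e-06). Pmaip1 was 7.37 to 7.67 and 6.32 to 6.67 in the wild type sets, and its genotype difference was -2.72 and -1.55 (interaction adjusted p = 0.000462). S100a9 differed by -1.75 and -0.79 (interaction adjusted p = 0.0345), whereas the interaction for S100a8 missed the threshold (adjusted p = 0.191). Fgf1 differed by 2.44 and 2.82, Ch25h by -1.40 and -1.19 and Garem1 by 1.86 and 1.80, with no interaction called. Of the 28 genes called at 2-fold or more, 27 were called within both sets in the same direction, Sult1a1 being the exception. So were 976 of the 1064 genes called in all 4 fits and 2056 of the 2669 called with all arrays. The sets are parts of the arrays that picked these genes, so these counts are no separate test of them.

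The share of called genes differed from one chromosome to another. On chromosome 18, 87 of 458 tested genes were called (19%), against 14.6% of all genes placed on these chromosomes; for calls in all 4 fits the shares were 11.1% and 5.79%, and for such calls of at least 1.5-fold 4.80% and 1.61%. Of the genes with the largest changes named above, Fgf1, Pcdhb9, Garem1, Dmxl1, Pmaip1, 1500015A07Rik and Pcdhb6 lie on chromosome 18. The protocadherin beta genes, neighbours there that code for related adhesion proteins of neurons, moved in both directions. Of 22 clustered protocadherins measured, 3 were higher and 4 lower with all arrays, against 6.37% and 8.31% of all genes, and 9 and 5 without array 6, against 24.1% and 12.4%. Next to the rise of Pcdhb9, Pcdhb6 fell from 5.52 to 6.45 in wild type to 4.63 to 4.79 in knockout (difference -1.16, SE 0.11, adjusted p = 1.46e-05), and Pcdhb11 (-0.49), Pcdhb8 (-0.32) and Pcdhb4 (-0.49) were lower. Probe sets of such close paralogs can bind each other's messages.

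The densest window of 25 neighbouring tested genes on each chromosome held 1 to 5 genes called in all 4 fits at 1.5-fold or more, against 1.61% of all genes. The window with 5 lay on the X chromosome, and 4 of these were higher. Hccs stood at 9.08 to 9.75 in wild type and 10.50 to 10.70 in knockout, and Prps2 at 9.64 to 10.04 and 10.72 to 11.18. Arhgap6, named after its value was seen, was 7.24 to 7.77 and 8.14 to 8.66 (difference 0.89, SE 0.09). Msl3 was 8.27 to 9.42 and 9.75 to 9.81. The fifth, G530011O06Rik, was the lower one. No wild type array overlapped the knockout arrays in any of the 5.

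Among the FGF ligands, receptors and feedback genes of the ERK pathway, 4 of 20 measured were higher and 1 lower with all arrays, against 6.37% and 8.31% of all genes, and 10 were higher and 1 lower without array 6, against 24.1% and 12.4%. Besides Fgf1 these were the receptor Fgfr1 (0.45, adjusted p = 0.017), the ERK-induced factor Etv4 (0.29) and the feedback inhibitor Spry1 (0.23), while the ligand Fgf2 was lower by 0.21. After joint quantile normalization without array 6 Fgf1 and Fgfr1 stayed called, Etv4 and Spry1 were not, and Fgf2 was at 0.05, with the opposite sign. Vegfa, the growth factor of vessels, was higher by 0.53 (adjusted p = 0.0014) and was called in all 4 fits. Its receptor genes Kdr (0.48, adjusted p = 0.00048) and Flt1 (0.57, adjusted p = 0.038) were the 2 of 13 endothelial genes that were higher with all arrays; 7 were higher without array 6 and none lower, and joint quantile normalization of all arrays called none.

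Of 20 cytokine, chemokine and receptor genes, 3 were higher and 4 lower with all arrays, and 5 and 4 without array 6, against the same shares of all genes. Tgfb1, an immunosuppressive cytokine, stood at 5.95 to 6.89 in wild type and 7.27 to 7.62 in knockout (difference 0.73, adjusted p = 0.0011). The chemokine genes Ccl7 (0.38) and Cxcl12 (0.65) were higher, and the chemokine genes Ccl12 (-0.43) and Ccl2 (-0.36) were lower. Cxcl12 differed between the spiked sets, with a genotype difference of 0.98 in the first and 0.23 in the second (interaction adjusted p = 0.0256). Of 19 interferon response genes 2 were higher with all arrays, Ifit3 (0.42, adjusted p = 0.00066) and Irgm1 (0.41), and 2 lower; 9 were higher and 2 lower without array 6, and 7 and 1 after joint quantile normalization without it. Of 10 MHC class I and peptide loading genes 2 were higher and 1, H2-M3, was lower by 0.21, with 4 higher and 3 lower without array 6; the proteasome subunit gene Psmb8 was higher by 0.37 on its brightest probe set, and its other probe set was called lower in knockout. The cholesterol synthesis genes were higher in 1 of 16 cases with all arrays, Sqle by 0.39 (adjusted p = 0.0019), and in 12 of 16 without array 6, against 24.1% of all genes, with none lower in either fit; joint quantile normalization without array 6 left 7 higher, against 10.4%.

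Markers of the cell types in the hemisphere were checked as lists. The hemispheres showed neuronal RNA, with a mean log2 level of the pan-neuronal list of 12.1 to 12.3 in wild type without array 6 and 12.3 to 12.4 in knockout. The microglial list was higher in 4 of 13 members with all arrays, Siglech, the purinergic receptor P2ry13 (0.46), Selplg (0.41) and the fractalkine receptor Cx3cr1 (0.57), and in 8 of 13 without array 6, against 6.37% and 24.1% of all genes, with none lower. Joint quantile normalization gave 2 higher and 1 lower with all arrays, and 5 and 1 without array 6. Its mean level was 8.08 to 8.29 in wild type and 8.38 to 8.55 in knockout. In bulk tissue a change in the number of cells and a change in RNA per cell cannot be told apart. The list of infiltrating leukocytes moved the other way, with S100a8, S100a9 and Mpo (-0.39, adjusted p = 0.031) lower of 13 measured, against 8.31% of all genes. Without array 6, 1 of the 13 was higher and 3 were lower, against 24.1% and 12.4% of all genes. Joint quantile normalization gave 0 higher and 3 lower with all arrays, and 0 and 5 without array 6. The mean level of the list without array 6 was 6.54 to 6.84 in wild type and 6.27 to 6.52 in knockout. The red cell list was lower in 2 of 4 members with all arrays, against 8.31% of all genes, among them the membrane gene Epb42 (-0.41). Its mean levels without array 6 were 5.69 to 6.26 in wild type and 5.58 to 5.91 in knockout. The part of blood cells in the fall of the neutrophil genes was not tested.

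Of the neural and glial lists, astrocytes had 1 of 14, mature oligodendrocytes 1 of 13 and their precursors 2 of 8 members called. The share of all genes was 14.7%. Mal, a myelin protein gene, was lower by 0.30 (adjusted p = 0.027) and was called in all 4 fits, and the precursor genes Olig2 (0.52, adjusted p = 0.049) and C1ql1 (0.54, adjusted p = 0.0046) were higher. Camk2a, the kinase of excitatory neurons, was the only 1 of 13 pan-neuronal genes called, at 0.76 (adjusted p = 0.026), with overlapping ranges of 11.89 to 13.46 and 12.59 to 13.69. Nos1, a marker of interneurons, was higher by 0.35, as 1 of 4 called among 11. Among region markers, 4 of 17 for thalamus and hypothalamus, 3 of 11 for cortical layers and 1 of 11 for hippocampus were higher with all arrays. No gene of these lists was called lower. For cerebellum and hindbrain 3 of 15 were lower and none higher. The shares of all genes were 6.37% higher and 8.31% lower. Without array 6 the higher and lower counts were 6 and 2, 6 and 0, 5 and 1, and 1 and 4 in that order. The shares of all genes there were 24.1% and 12.4%. Joint quantile normalization of all arrays gave 1 and 1, 1 and 0, 0 and 0, and 0 and 1. The thalamic gene Gbx2 was 5.0 to 5.58 in wild type and 5.91 to 6.30 in knockout (difference 0.80, adjusted p = 0.000124), the cortical gene Rspo1 rose by 0.53 (adjusted p = 3.83e-05), and the cerebellar gene Zic2 fell by 0.78 (adjusted p = 3.83e-05), with no overlap in any of the 3. The ciliary gene Foxj1 (0.63, adjusted p = 7.6e-05) was higher as the 1 called of 12 choroid plexus and ependyma genes, and the collagen gene Col1a1 (0.61, adjusted p = 0.002) as the 1 called of 12 genes of meninges and fibroblasts. The part of dissection in these region and lining markers was not tested. Rgs9, Gnal, Pde11a, Bdnf, Tgfb1, Cxcl12, Flt1, Camk2a, Nos1 and Mal each had 1 other probe set with the opposite sign, which was not called. Across all 43 lists 57 of 589 measured genes were higher and 29 lower with all arrays, and 20 and 18 in all 4 fits. Over all 18193 genes the counts were 1158 higher and 1511 lower with all arrays, and 356 and 708 in all 4 fits.

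The genotype difference of the naive hemisphere was set beside that measured within the sham arrays (3 and 3) and within the MCAO arrays (7 and 7), 24 h after surgery. In sham 1107 genes were called (6.08%) and in MCAO 8 (0.044%). All 28 genes called at 2-fold or more in naive brain had the same sign after MCAO, against 62.3% of all genes, and 2 of them were called there. After sham 16 of 28 had the same sign, against 43.6% of all genes, with 5 called in the same and 1 in the opposite direction. Of the 1064 genes called in all 4 naive fits, 72.3% had the same sign after MCAO and 29.7% after sham, where 24 were called in the same and 59 in the opposite direction. Over all 18193 genes, 540 were called after sham in the direction of the naive difference and 567 in the opposite direction. The naive and surgery comparisons share no arrays.

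Pmaip1 and 1500015A07Rik were lower in knockout in all 3 settings. Pmaip1 read 5.64 to 6.30 in wild type and 4.45 to 4.63 in knockout after sham (difference -1.5, adjusted p = 0.0183), and 7.04 to 8.84 and 5.88 to 6.80 after MCAO (difference -1.47, adjusted p = 0.00222). 1500015A07Rik differed by -0.89 after sham (adjusted p = 0.00837) and by -1.09 after MCAO (adjusted p = 6.53e-07), without overlap in either. Fxyd2 (0.82), AI506816 (-1.25), 4831440E17Rik (-0.52), H2-Bl (1.05) and 2900052N01Rik (1.21) were called after sham in the naive direction, with adjusted p between 0.0259 and 0.0461, and were not called after MCAO (0.55, -1.04, -0.07, 0.69 and 1.16). Knockout MCAO array 7 read 8.47 for 2900052N01Rik, against 9.86 to 10.84 in the other knockout and 8.52 to 8.98 in the wild type MCAO arrays. For H2-Bl the values were 5.37, 5.94 to 6.81 and 5.36 to 5.65 in that order, and for Fxyd2 6.06, 6.43 to 7.21 and 6.07 to 6.53. For AI506816 array 7 read 7.35, inside the 6.39 to 7.99 of the other knockout arrays. Why array 7 differed was not tested.

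Fgf1 and Pcdhb9, with the largest naive rises, were not called after surgery. Fgf1 stood at 8.89 to 9.27 in wild type and 8.81 to 9.20 in knockout after sham, a difference of -0.11 (adjusted p = 0.926). After MCAO wild type arrays 1, 2 and 3 read 6.71, 6.82 and 6.61, while wild type arrays 4 to 7 read 8.88 to 9.44 and the knockout arrays 8.70 to 9.85 (difference 1.06, adjusted p = 0.186). Pcdhb9 followed: wild type MCAO arrays 1, 2 and 3 read 3.99, 4.77 and 5.50, arrays 4 to 7 read 6.77 to 8.11, and the knockout arrays 7.25 to 8.47. Why wild type arrays differ in these 2 genes was not tested. Dmxl1 was called in the opposite direction after sham, at -0.87 (adjusted p = 0.0230). Hccs (-0.34 and 0.35), Prps2 (-0.61 and 0.32), Tcf23 (0.08 and -0.06), Ch25h (-0.05 and -0.11) and Zfp54 (0.25 and -0.12) were not called after sham or MCAO, the values given in that order. S100a8 and S100a9 differed by -1.75 and -2.09 after MCAO and by -0.09 and -0.25 after sham, none of them called.

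**Figure D5:**
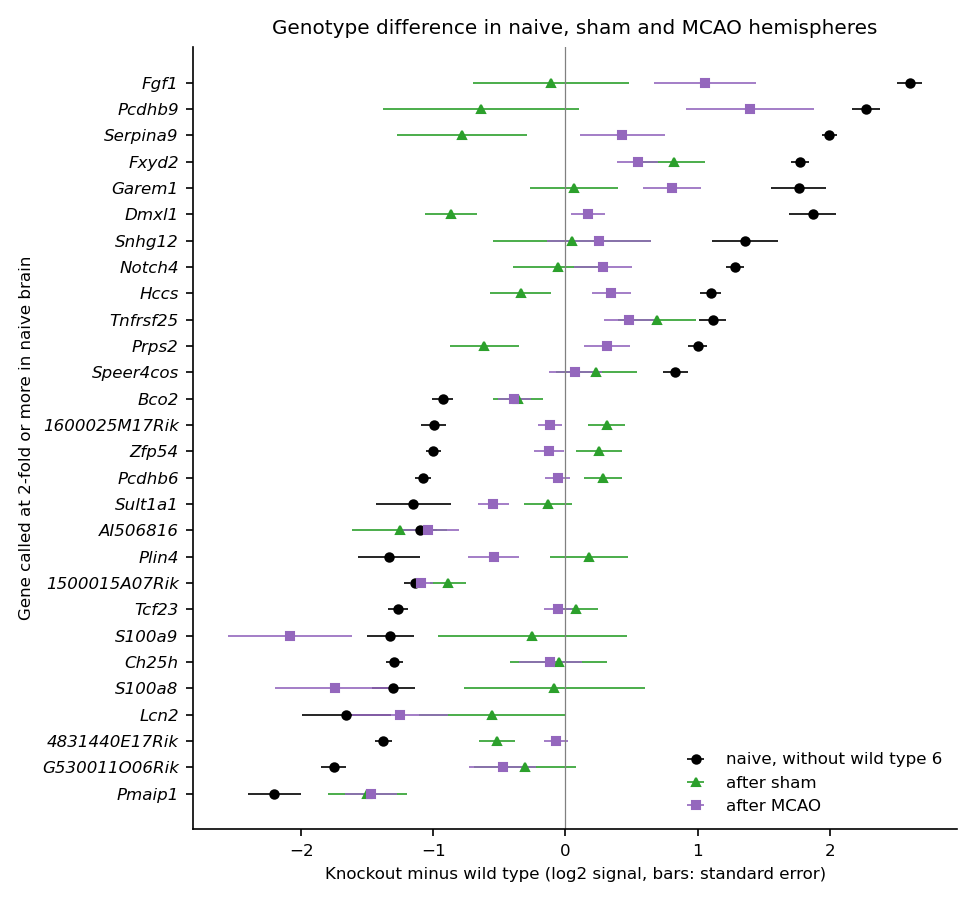
Knockout minus wild type difference in log2 signal, with its standard error, of the 28 genes called at 2-fold or more in naive brain, measured in the naive arrays without wild type 6 (black circles), after sham (green triangles) and after MCAO (purple squares). Pmaip1, AI506816 and 1500015A07Rik lie left of 0 in all 3 settings, while Fgf1 lies at 2.6 in naive brain and -0.11 after sham.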

How the data were processed

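RNA of naive hemispheres was hybridised to Affymetrix whole-genome mouse arrays, 1 array a sample. The authors deposited log2 values made with RMA, per the submitters' processing notes (version not given in the sources used here); per the labels naive and surgery arrays were normalized separately. Of 45101 probe sets, 64 controls were left out, 34945 had 1 gene symbol, 932 several and 9160 none listed; 34741 symbols were updated by Entrez ID. Each of 18193 genes was read from 1 probe set, the brightest on average in the 15 naive arrays. Genotypes were compared with limma 3.58.1 in R 4.3.3 (lmFit, eBayes, Benjamini-Hochberg over all genes, called at adjusted p under 0.05), after tests on simulated data. Surgery arrays had a fit of their own. The number of arrays limits the precision.

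Alternatives were joint quantile normalization, median centring, each array left out, array weights, 3′ minus 5′ covariates, a filter on dim genes, other probe set rules and a block by replicate number. The spiked control sets, and the combinations without wild type array 6, were added after seeing the data. Named were the 15 largest called rises and falls, the 10 smallest p-values and, of each list, up to 5 called members or, with none called, 2 with the smallest p; of those eligible, the genes described were chosen after their values were seen, and exceptions are marked. Members and gene lists were chosen with earlier results of these data known. Promoters came from RefSeq tables (GRCm38.p6). The gene of the targeted receptor itself is not reported.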

Additional observations from a re-analysis of the deposited data

Results flagged for a closer look

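Wild type array 6 was the sample farthest from the other wild type arrays in most array measures. Its 1st percentile was 4.15 (next 3.94), its interquartile range 2.63 (next 3.22), its actin 3′ minus 5′ difference 4.88 and its Gapdh difference 3.51, its Gapdh signal from the middle of the message 8.91, its spiked bioC signal 10.4 and its median correlation with the other arrays 0.82. In knockout, array 4 stood apart in the Gapdh difference (0.15) and in the Gapdh middle signal (14.2). A sample was named here when its gap to the nearest array exceeded the critical value of Dixon's test for the group's range; chance does so in about 1 in 20 groups, and 176 pairs of gene and group were examined.

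The same array was the far value of the wild type group in 25 gene values. It read high for Pcdhb9 (7.55), Serpina9 (6.20), G530011O06Rik (9.50), 4831440E17Rik (7.72), Ch25h (7.38), 1500015A07Rik (8.41), AI506816 (8.88), Pcdhb6 (6.45), Zfp54 (7.03), Dbh (8.71), Bdnf (9.15), Pcdhb4 (5.61) and Kdr (8.20). It read low for Speer4cos (4.91), Crtc3 (6.99), Fosl2 (6.93), Tgfb1 (5.95), Sqle (9.88), Fgfr1 (8.12), C1ql1 (6.65), Olig2 (7.34), Selplg (8.31), Cx3cr1 (7.21), Flt1 (7.60) and Foxj1 (6.24).

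Other arrays gave 15 such values. Knockout array 4 read 10.24 for Fgf1, 8.68 for Fosb, 7.41 for H2-M3, 10.70 for Sqle, 9.64 for Fkbp5 and 10.60 for Sgk1. Knockout array 5 read 6.4 for H2-Bl, 4.85 for Adcy10 and 5.69 for Epb42, and knockout array 7 read 6.19 for AI506816 and 4.95 for Pcdhb4. Siglech was 7.78 in knockout array 2, Ccl2 was 5.04 in knockout array 3, Fgf2 was 4.17 in knockout array 1 and Camk2a was 13.46 in wild type array 3.

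The genotype difference differed between the spiked control sets, by the interaction term of limma without array 6, for 9 of the named genes. Given as the difference in arrays of lower minus that in arrays of higher spiked signal, it was -1.75 for Sult1a1, -1.72 for Lcn2, -1.41 for Plin4, -1.18 for Sgk1, -1.17 for Pmaip1, -0.97 for S100a9, -0.83 for Tsc22d3, -0.63 for Fkbp5 and 0.75 for Cxcl12.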

How the results depend on the processing

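The 2669 calls (1158 higher, 1511 lower) depended most on wild type array 6 and on scaling. Leaving out each array gave 2005 to 6641 calls (833 to 4389 higher, 1142 to 2252 lower), the highest without wild type array 6. With all arrays, median centring gave 330 higher and 3378 lower, joint quantile normalization 1497 in all (529 and 968), leaving out dim genes 357 (344 and 13), array weights 7637 (5046 and 2591), the actin covariate 6243 (4012 higher) and the Gapdh covariate 6680 (4347 and 2333). Without array 6, quantile normalization gave 4041 (1885 higher), median centring 6379 (5309 lower), the arrays of lower spiked signal 6443 (3761 and 2682), those of higher spiked signal 6240 (4315 higher) and the set as a term 8346 (5425 and 2921). All probe sets with 1 symbol gave 5689 (2408 and 3281), adjusted p under 0.01 1342 (498 and 844) and a change of at least 1.5-fold 340 (96 and 244). Replicate numbers did not pair the arrays, since same-numbered deviations correlated from -0.08 to 0.49 and 1 of 7 wild type arrays matched its own number best; a replicate block over arrays 1 to 7 gave 751 higher genes, and 6652 in all (4423 higher) with pair 6 left out. Of the list members 86 were called, 45 after quantile normalization and 230 without array 6. Of the naive calls, 41 were also called in the same direction after sham and 4 after MCAO, or 94 and 7 without wild type array 6. Calls in the opposite direction after surgery are not in these counts. Without array 6 the 3′ minus 5′ genotype difference changed sign for actin (-0.52 to 0.012) and Gapdh (-0.40 to 0.057).

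Of the 88 named genes, 81 were called. Joint quantile normalization of all arrays left 23 no longer called, median centring 18 and the mean of all probe sets of a gene 13. The filter on dim genes kept only 42 of the 81 in the fit, and 13 of those 42 were no longer called. Signs changed for Akap13 (-0.072) and Psmb8 (-0.0024) with the mean of probe sets, and for Fgf2 after quantile normalization (0.072, and 0.052 without array 6). The cause of these changes was not tested. Probe sets not far above the lowest signals limit the falls among dim genes.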
